A study of Mus musculus with 12 samples.

Results

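Min6 cells treated with 5 µM loperamide for 48 h were compared with Min6 cells that received the solvent DMSO for the same time. The comparison covers all genes of the count table and takes 6 of the study's 12 libraries, 3 of each group. The other 6 libraries come from Min6 cells given 1 µM AS1842856, an inhibitor of the transcription factor FoxO1, either by itself (FoxOi) or together with 5 µM loperamide (FoxOi_Loperamide), and were used as a second comparison of loperamide. All 4 groups share the Min6 line and the 48 h of culture. Min6 was derived from an insulinoma of a transgenic mouse, so it divides and secretes insulin at the same time, unlike most beta cells of an islet. Nothing in the labels says that the 3 libraries of a group came from separate cultures, so p-values measure the spread between these libraries, which may be technical.

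Beta cells make insulin as a precursor that is translocated into the endoplasmic reticulum (ER), folded and cross-linked there, carried through the Golgi, cut by prohormone convertases and stored in dense-core granules until calcium entry triggers exocytosis. The unfolded protein response matches the supply of ER chaperones to this load through the sensors Ern1 (IRE1), Atf6 and Eif2ak3 (PERK). Loperamide is an agonist of the mu opioid receptor that acts on the gut, and opioid receptors couple to inhibitory G proteins that lower cyclic AMP. It is also a lipophilic amine that is known to block voltage-gated calcium channels at higher concentrations.

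The 6 libraries held 10640485 (Loperamide replicate 1) to 17045589 (DMSO replicate 1) counts, with 22063 to 23502 genes counted at least once. The label of a beta cell line was checked against 15 beta cell markers, all of which were detected. One of them, Slc2a2, was near the limit, with 20 to 34 counts in the DMSO libraries and 13 to 23 in the loperamide libraries. Ins1 and Ins2 together took 3.85% to 5.63% of all counts in DMSO and 4.52% to 4.66% in loperamide. Counts of mitochondrial genes made up 1.40% to 1.94% of the DMSO libraries and 1.89% to 2.799% of the loperamide libraries. Libraries of a group differed by more than counting error, by 5.34 to 33.6 times the counting variance. Levels are given as counts per 1000000 of the scaled library (CPM), and a gene was called where edgeR's quasi-likelihood test gave a Benjamini-Hochberg adjusted p under 0.05.

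Of 16808 genes tested, 5370 (31.9%) were called. They divided nearly evenly, with 2713 genes (16.1%) higher and 2657 (15.8%) lower in loperamide, and the median log2 fold change of all genes was 0.02. A fit that pairs the libraries by replicate number (the replicate block) called 8179 (48.7%), 4330 higher and 3849 lower, and 5368 of the 5370 were among them. Gene list counts below are to be read beside 16.1% and 15.8%, and those with the block beside its 48.7% in either direction. Larger changes leaned towards falls: 428 called genes were at least 2-fold higher and 595 at least 2-fold lower, and 53 and 120 passed 4-fold. Protein-coding genes were called higher in 2416 and lower in 2177 of 12907 cases, whereas processed pseudogenes, whose reads cannot be told apart from those of their parent genes where the copies are near-identical, were called higher in 120 and lower in 359 of 2258.

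**Figure D1:**
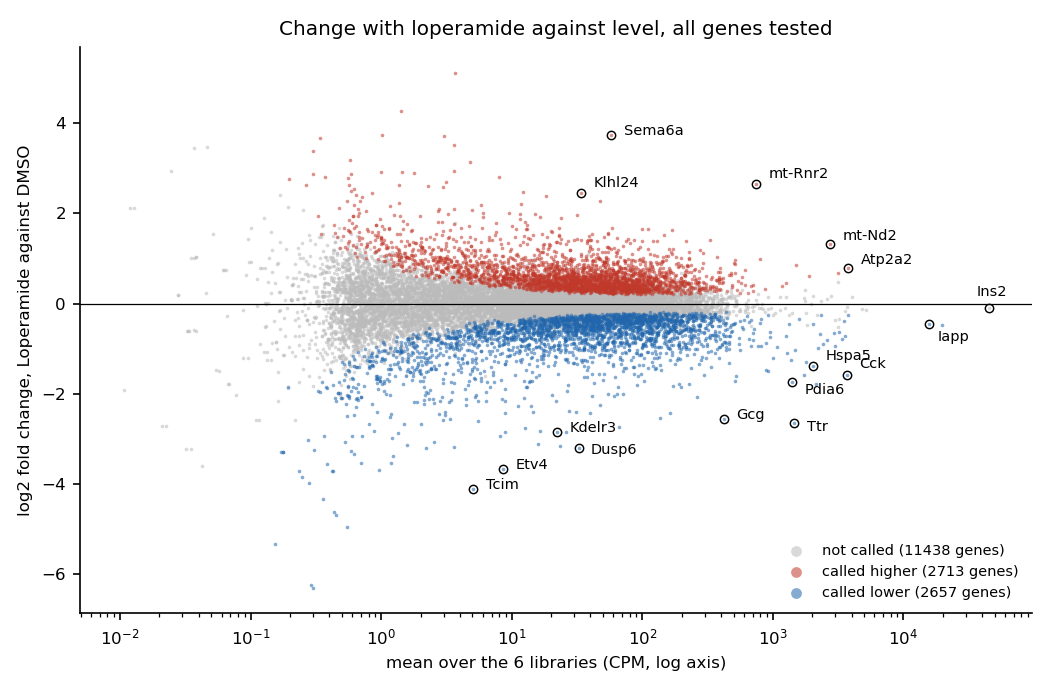
Log2 fold change of Loperamide against DMSO (vertical axis) against the mean level over the 6 libraries in CPM (log axis) for the 16808 genes tested, with called genes in red (higher) and blue (lower) and 16 genes ringed and named. Calls reach down to smaller changes as the level rises, and the largest falls of abundant genes (Ttr, Cck, Pdia6, Hspa5) exceed the rises at the same levels apart from mt-Rnr2.

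The largest of the rises, taken over genes averaging 5 CPM or more, was that of Sema6a, a transmembrane semaphorin (ENSMUSG00000019647). It was at 8.63, 6.41 and 9.10 CPM in DMSO and 136, 97.8 and 87.5 CPM in loperamide, a 13.3-fold rise (log2 fold change 3.74 ± 0.19, SE, edgeR adjusted p = 4.08e-08) with no overlap. The 12 largest rises also included Klhl14 and Klhl24, members of the Kelch-like family of ubiquitin ligase adaptors, Crebrf, a regulator of the transcription factor Creb3, and Tnfaip3, an inhibitor of NF-kappa B signalling. Klhl24 (ENSMUSG00000062901, chr16:20097542-20129221) had levels of 9.21, 9.46 and 12.99 CPM in DMSO and 58.5, 50.2 and 63.2 CPM in loperamide. The lowest loperamide library was thus well above the highest DMSO library, and the log2 fold change was 2.45 ± 0.15 (SE, edgeR adjusted p = 6.39e-08), a 5.45-fold rise. Klhl14 rose 5.52-fold, Crebrf 4.82-fold and Tnfaip3 3.96-fold. The ephrin receptor Epha1 and the receptor Gpr146 each rose 4.03-fold.

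The 12 largest falls held secreted factors as well as regulators. C1qtnf1, a secreted protein of the adiponectin-related family (ENSMUSG00000017446, chr11:118428203-118449963), is an example: its level was 30.8, 27.8 and 27.4 CPM in DMSO and 3.08, 3.57 and 3.24 CPM in loperamide, a log2 fold change of -3.12 ± 0.13 (edgeR adjusted p = 5.33e-09). Angpt2, a secreted ligand of blood vessel cells, fell 6.72-fold, Cthrc1, a secreted protein with collagen repeats, 7.19-fold, and Slc17a9, the transporter that loads nucleotides into vesicles, 7.23-fold. Groups of these genes did not overlap, as the naming rule required.

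The machinery that folds proteins in the ER was lower in loperamide almost throughout. Of 30 chaperones, disulfide isomerases and co-chaperones of the ER lumen, 26 fell, 1 rose and 3 were not called, and the list's median log2 fold change was -1.18. Pdia6, a disulfide isomerase (ENSMUSG00000020571, chr12:17266545-17284770), was at 2215, 2098 and 2125 CPM in DMSO and at 585, 689 and 656 CPM in loperamide. The groups were far apart relative to their spread, and the log2 fold change was -1.74 ± 0.08 (edgeR adjusted p = 7.11e-09). Hspa5 (BiP), the main chaperone of the ER (ENSMUSG00000026864, chr2:34771970-34777547), was at 2994, 2744 and 3073 CPM in DMSO and 1070, 1125 and 1190 CPM in loperamide, a 2.60-fold fall. P4hb, the isomerase that forms disulfide bonds, fell 3.41-fold, from 3325 ± 215 to 974 ± 75.0 CPM (SD, n = 3). Hsp90b1 (Grp94), a chaperone of the Hsp90 family, fell 3.01-fold, and the calcium-binding lectin chaperone Calr 2.44-fold.

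Other members of the same list fell as well. Fkbp11, a prolyl isomerase of secretory cells, went from 138, 108 and 98.5 CPM to 16.3, 20.1 and 15.2 CPM, a 6.69-fold fall. Creld2 fell 3.55-fold and Manf, a secreted factor of the ER stress response, 2.999-fold. Dnajb11, a co-chaperone of BiP, fell 2.53-fold, and Hyou1, its nucleotide exchange factor, 2.81-fold. The member that rose was Tmem38b, an ion channel of the ER membrane and not a chaperone (log2 fold change 0.56 ± 0.13, edgeR adjusted p = 0.00463). The lectin chaperone Canx was at -0.50 on the log2 scale without a call (adjusted p = 0.0569 by edgeR), and Ero1l and Ero1lb, which recharge the isomerases, were at -0.41 and 0.16.

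Promoters of these genes are shown because several hold the ER stress element, a known binding site of Atf6, spelled here as CCAAT and CCACG with 9 bases between them. Both strands of the window from 250 bases before to 50 bases after each start (RefSeq, GRCm38.p6) were searched. The element was found in 18 of 10861 promoters of tested genes (0.166%) and in 7 of the 23 ER chaperone genes with a promoter in that set. Those 7 are Hspa5, Hsp90b1, Calr, Canx, Pdia6, Dnajc3 and Creld2. Of the 4 promoters below, capitals mark the 2 parts of the element, or of its reverse complement, CGTGG and ATTGG. The match lies 98 bases before the start in Pdia6 (chr12:17266339-17266638, plus strand), 212 and 107 bases before it in Hsp90b1 (chr10:86705395-86705694, minus strand), 162 bases before it in Calr (chr8:84846882-84847181, minus strand) and 126 bases before it in Creld2 (chr15:88819396-88819695, plus strand).
Pdia6: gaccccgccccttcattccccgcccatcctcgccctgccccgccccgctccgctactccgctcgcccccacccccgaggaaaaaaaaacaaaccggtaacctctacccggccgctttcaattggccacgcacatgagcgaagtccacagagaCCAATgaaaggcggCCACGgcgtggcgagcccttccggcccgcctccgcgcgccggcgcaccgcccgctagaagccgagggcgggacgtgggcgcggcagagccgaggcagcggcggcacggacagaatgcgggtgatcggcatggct
Hsp90b1: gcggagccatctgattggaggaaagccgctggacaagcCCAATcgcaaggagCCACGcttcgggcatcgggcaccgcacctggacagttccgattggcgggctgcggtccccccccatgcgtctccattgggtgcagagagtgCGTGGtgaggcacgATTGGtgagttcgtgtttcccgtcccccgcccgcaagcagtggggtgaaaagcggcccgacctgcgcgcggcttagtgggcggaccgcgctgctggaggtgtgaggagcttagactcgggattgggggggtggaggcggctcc
Calr: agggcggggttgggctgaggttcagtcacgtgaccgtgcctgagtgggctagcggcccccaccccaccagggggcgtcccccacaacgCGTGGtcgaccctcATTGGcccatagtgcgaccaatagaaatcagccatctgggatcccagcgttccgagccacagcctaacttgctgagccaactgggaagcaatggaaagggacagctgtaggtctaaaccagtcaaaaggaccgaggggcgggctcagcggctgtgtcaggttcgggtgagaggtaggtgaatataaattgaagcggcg
Creld2: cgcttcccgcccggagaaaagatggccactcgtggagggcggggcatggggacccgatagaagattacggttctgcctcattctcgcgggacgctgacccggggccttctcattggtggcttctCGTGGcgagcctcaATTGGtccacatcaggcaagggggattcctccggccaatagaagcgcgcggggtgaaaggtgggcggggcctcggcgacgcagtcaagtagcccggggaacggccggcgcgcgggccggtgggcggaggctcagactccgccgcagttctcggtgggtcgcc

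**Figure D2:**
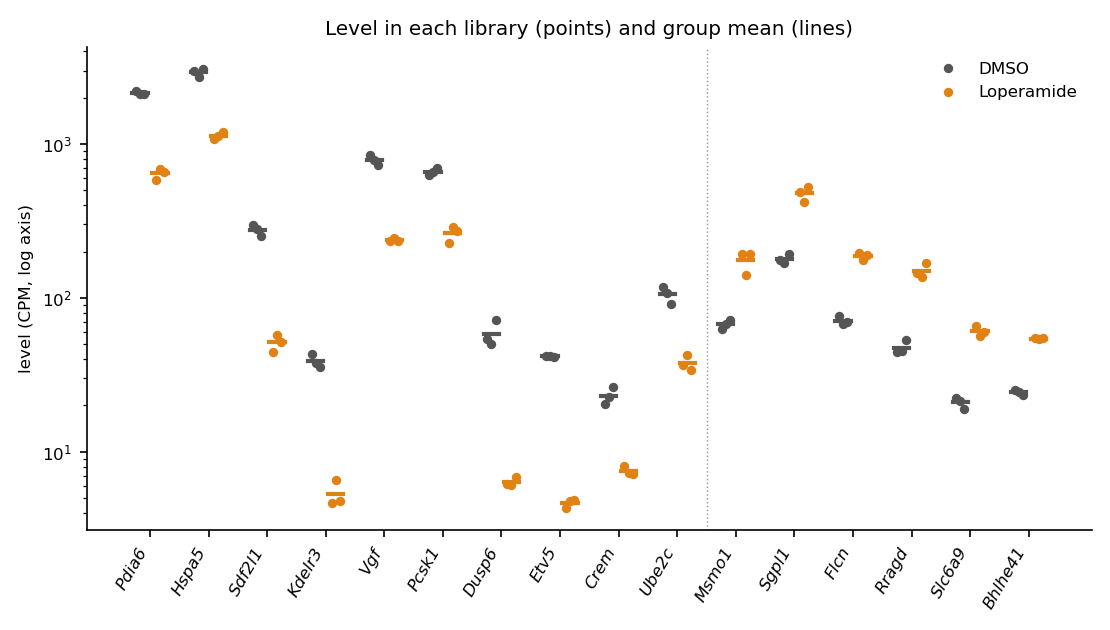
Level in each library (points, CPM, log axis) and group mean (lines) of 10 genes lower and, to the right of the dotted line, 6 genes higher in loperamide than in DMSO. For every gene shown, the 3 points of a group do not overlap with those of the other.

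Steps on either side of folding were lower as well. Of 23 genes for entry into the ER, 22 fell and 0 rose, with a median of -0.80: Ssr2, a subunit of the translocon-associated complex, fell 3.02-fold, the signal peptidase subunit Sec11c 2.79-fold, and Sec61b, a subunit of the translocation channel, 2.12-fold. Sec62, at -0.16, was the member without a call. Of 26 genes for N-glycosylation, 21 fell and 1 rose, with a median of -0.87. Gmppb, which makes GDP-mannose (ENSMUSG00000070284, chr9:108049242-108052801), went from 104, 93.8 and 97.4 CPM in DMSO to 19.8, 27.0 and 24.2 CPM in loperamide, a 4.15-fold fall with no overlap. Ddost, a subunit of the oligosaccharyltransferase, fell 2.79-fold, and Pgm3, of the hexosamine pathway, 3.09-fold. Uggt2, a relative of the folding sensor Uggt1, was the member that rose (0.46 on the log2 scale), while Uggt1 itself fell by 1.02.

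Carriers between ER and Golgi followed, with 38 of 42 lower, 0 higher and a median of -0.71. Kdelr3, a receptor that returns ER residents from the Golgi (ENSMUSG00000010830, chr15:79516411-79527739), was at 43.0, 37.6 and 35.7 CPM in DMSO and 4.66, 6.54 and 4.82 CPM in loperamide, a log2 fold change of -2.85 ± 0.18 (edgeR adjusted p = 8.66e-08). Its relatives Kdelr2 and Kdelr1 fell by 0.84 and 0.61 on the log2 scale. The COPII coat subunit Sec24d fell 2.73-fold, the exit site protein Sec16b 3.22-fold and the cargo receptor Tmed3 2.65-fold. Of the coat of return vesicles, Copb2 fell by 1.00 and Copa by 0.75.

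ER-associated degradation, which retrieves misfolded proteins for the proteasome, was lower in 13 of 22 genes and higher in 2, with a median of -0.32. Derl3, of the family that moves clients back across the membrane, fell 4.28-fold and the mannosidase-like Edem2 2.46-fold, whereas the adaptor Sel1l was at 212 ± 46.3 and 221 ± 36.6 CPM without a call. Herpud1 rose by 0.51 (edgeR adjusted p = 0.0109), but without DMSO replicate 3 its adjusted p was 0.0520 and without Loperamide replicate 2 it was 0.0517. The 14 sensors and factors of the unfolded protein response moved in both directions, with 6 lower and 4 higher. Xbp1, the factor spliced by Ern1, fell from 308, 293 and 296 CPM to 165, 185 and 177.9 CPM, a 1.70-fold fall, and Eif2ak3 fell 1.54-fold. Ern1 and Atf6 were not called (adjusted p = 0.160 and 0.907 by edgeR), although Ern1 passed with the replicate block (adjusted p = 0.000197). The members that rose were Ddit3 (CHOP) and Trib3, which belong to the Eif2ak3 and Atf4 arm, the phosphatase subunit Ppp1r15a (not called without DMSO replicate 3, adjusted p = 0.0552, or Loperamide replicate 1, 0.0553), and Creb3l1, whose adjusted p of 0.0121 became 0.0555 without DMSO replicate 2 and 0.0650 without Loperamide replicate 1. Ddit3 was at 53.1, 40.9 and 29.9 CPM in DMSO and at 136, 104 and 85.3 CPM in loperamide, and Trib3 rose 3.14-fold.

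Genes for peptide hormones and for amine synthesis were lower wherever they were called without the replicate block. Of 25 tested, insulin included, 13 fell and 0 rose (14 and 1 with the block), with a median of -0.63. Sst (somatostatin) went from 75.1, 36.3 and 45.8 CPM to 15.9, 7.90 and 6.47 CPM, a 5.28-fold fall (edgeR adjusted p = 0.00337). Tph1, the enzyme that starts serotonin synthesis (ENSMUSG00000040046, chr7:46644641-46672537), was at 56.0, 86.3 and 93.1 CPM in DMSO and 12.7, 18.1 and 18.5 CPM in loperamide, a 4.75-fold fall. Cck (cholecystokinin), among the 8 genes that lost the most CPM, was at 5782, 5255 and 5437 CPM in DMSO and at 1699, 2149 and 1685 CPM in loperamide. In none of these did the groups overlap. Gast (gastrin) fell 3.28-fold, Gal (galanin) 2.57-fold, Npy 2.03-fold and the noradrenaline enzyme Dbh 3.75-fold. In bulk samples such as these, fewer cells making a hormone and less of its RNA in each cell cannot be told apart.

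Alpha cell markers moved in both directions: of 6 tested, 3 fell and 1 rose. Gcg was at 778, 807 and 567 CPM in DMSO and at 112, 156 and 96.5 CPM in loperamide (log2 fold change -2.56 ± 0.21, edgeR adjusted p = 2.21e-06). Ttr (transthyretin) fell 6.22-fold and Gc, a vitamin D-binding protein found in alpha cells, also fell. The marker that rose was Slc7a2, a transporter of basic amino acids, with 135, 172 and 203 CPM in DMSO and 247, 286 and 291 CPM in loperamide (log2 fold change 0.70 ± 0.15, edgeR adjusted p = 0.00325). The summed level of 9 alpha cell markers, most of it Ttr and Gcg, was 2856 to 4018 CPM in DMSO and 703 to 1030 CPM in loperamide. Irx1 and Irx2 were not called. The 5 delta cell markers summed to 48.8 to 90.8 CPM in DMSO and 11.6 to 23.4 CPM in loperamide, with Hhex at 0.

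Insulin and the beta cell transcription factors changed little beside these. Ins2 was at 56661, 45732 and 37473 CPM in DMSO and at 43539, 43494 and 43143 CPM in loperamide, so the loperamide libraries lay inside the DMSO range and Ins2 was not called (-0.10 ± 0.13). Ins1 fell 1.55-fold and the co-secreted peptide Iapp 1.37-fold. Of 25 beta cell factors, 8 rose, 3 fell and the median was 0.02 (10 and 6 with the replicate block). Rfx6 rose 1.51-fold, Neurod1 1.36-fold, Nkx2-2 1.33-fold and the glucose-responsive factor Mlxipl (ChREBP) 1.67-fold, while Hnf4a fell 1.56-fold. Pdx1, which drives beta cell identity, was at 369, 378 and 414 CPM in DMSO and 330, 312 and 341 CPM in loperamide, a fall by 0.24 on the log2 scale (edgeR adjusted p = 0.0367) that was no longer called without the filter on low counts, with the 2 groups alone and in 5 of 6 comparisons with 1 library left out (adjusted p up to 0.124). Mafa, an activator of the insulin genes, was at 805, 846 and 782 CPM in DMSO and 764, 819 and 700 CPM in loperamide, overlapping and not called (adjusted p = 0.660 by edgeR).

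Proteins of the dense-core granule and the enzymes that process prohormones included 14 that fell and 2 that rose, of 25 tested (16 and 4 with the replicate block). Vgf, a granin-like precursor (ENSMUSG00000037428, chr5:137026392-137033351), had 842, 781 and 731 CPM in DMSO and 236, 246 and 235 CPM in loperamide, a log2 fold change of -1.72 ± 0.08 (edgeR adjusted p = 7.11e-09). Pcsk1, the convertase that makes the first cut in proinsulin (ENSMUSG00000021587, chr13:75089826-75134861), was at 624, 654 and 701 CPM in DMSO and 228, 290 and 271 CPM in loperamide, a 2.51-fold fall. The second convertase, Pcsk2, fell 1.19-fold (adjusted p = 0.0496), close to the threshold, and carboxypeptidase E (Cpe) was not called. The amidating enzyme Pam fell 2.701-fold, Nucb2, the precursor of nesfatin, 3.46-fold, and the granins Scg3, Chgb and Chga 1.98-fold, 1.65-fold and 1.39-fold.

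The exocytosis machinery, which fuses granules with the membrane, was split. Of 36 genes, 10 were higher (27.8%, beside 16.1% of all genes) and 9 lower (25%, beside 15.8%). With the replicate block 17 were higher and 12 lower. Stx3, a syntaxin of granule fusion, rose 1.56-fold and Rph3al (noc2), a Rab effector on granules, 1.62-fold, whereas the granule GTPase Rab3d fell 1.86-fold. The channel that couples glucose to the membrane rose in both subunits. Abcc8 (SUR1), the target of sulfonylureas, was at 1528, 1491 and 1455 CPM in DMSO and 2216, 2277 and 2316 CPM in loperamide, a 1.52-fold rise, and was among the 8 genes that gained the most CPM. Kcnj11, the pore subunit, rose 1.19-fold (adjusted p = 0.0188), a call that was lost without the filter on low counts and in 5 of 6 comparisons that left out 1 library.

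Negative feedback genes of ERK signalling were among the strongest falls. Dusp6, the phosphatase that inactivates ERK (ENSMUSG00000019960, chr10:99263231-99267489), was at 53.9, 50.1 and 71.8 CPM in DMSO and 6.15, 6.08 and 6.83 CPM in loperamide, a log2 fold change of -3.20 ± 0.15 (edgeR adjusted p = 6.64e-09). The transcription factor Etv5, of the PEA3 group of ETS factors, fell from 41.9, 42.1 and 41.5 CPM to 4.29, 4.79 and 4.89 CPM, and its relative Etv4 from 18.4, 16.3 and 13.4 CPM to 0.932, 1.29 and 1.51 CPM. Every loperamide library lay far below every DMSO library for the 3 genes. The feedback inhibitor Spry4 fell 2.995-fold, Dusp5 2.30-fold and Dusp4 2.12-fold. Not all of the list fell: of 23 genes, 8 were lower (34.8%, beside 15.8% of all genes) and 5 higher (21.7%, beside 16.1%). Those higher were Dusp1 (2.08-fold), Ier2 (1.87-fold), Myc (1.83-fold), Phlda1 and Egr1, the last with an adjusted p of 0.0272 that rose as high as 0.126 with 1 library left out.

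Immediate early genes did not move together. All 3 members of the Nr4a family of orphan nuclear receptors fell, Nr4a1 4.15-fold, Nr4a2 3.57-fold and Nr4a3 3.88-fold. Of the AP-1 factors, Jun rose 2.37-fold, from 24.4, 25.6 and 21.4 CPM to 53.8, 53.3 and 61.8 CPM, and Junb 2.34-fold, while Fosl2 fell by 0.87 on the log2 scale and Fosb by 0.79. Fos was at 0.80 without a call. Over the list, 7 of 23 genes rose (30.4%, beside 16.1% of all genes) and 6 fell (26.1%, beside 15.8%).

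Genes known to respond to cyclic AMP through CREB were lower in 10 of 25 cases and higher in 2, with a median of -0.18 (11 and 5 with the replicate block). Crem, which encodes the repressor ICER, was at 20.5, 22.8 and 26.3 CPM in DMSO and 8.11, 7.30 and 7.19 CPM in loperamide, a 3.08-fold fall without overlap. Sik1, a kinase that shuts off CREB coactivators, fell 3.30-fold, and Inhba, an activin subunit, 3.70-fold. Prkar1a, the regulatory subunit that restrains protein kinase A, fell from 1659, 1746 and 1863 CPM to 794, 820 and 856 CPM, and its relative Prkar2b rose by 0.50. The phosphodiesterase Pde4a rose 1.499-fold. Irs2, Ppargc1a and Per1, known targets of the same pathway, were not called.

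The full CRE sequence TGACGTCA, which reads the same on both strands, was in 398 of the 10861 promoters (3.66%) and in 4 of the 19 listed genes with a promoter. Promoters of Pcsk1 (chr13:75089607-75089906, plus strand) and Sst (chr16:23890795-23891094, minus strand), both lower in loperamide, are shown with the CRE in capitals, 78 and 48 bases before the start.
Pcsk1: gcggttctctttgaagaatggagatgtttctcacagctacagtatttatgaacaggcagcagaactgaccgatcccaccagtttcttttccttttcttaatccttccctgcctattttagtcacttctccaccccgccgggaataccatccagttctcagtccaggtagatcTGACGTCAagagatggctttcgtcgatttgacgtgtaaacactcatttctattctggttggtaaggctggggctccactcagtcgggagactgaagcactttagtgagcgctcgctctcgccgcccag
Sst: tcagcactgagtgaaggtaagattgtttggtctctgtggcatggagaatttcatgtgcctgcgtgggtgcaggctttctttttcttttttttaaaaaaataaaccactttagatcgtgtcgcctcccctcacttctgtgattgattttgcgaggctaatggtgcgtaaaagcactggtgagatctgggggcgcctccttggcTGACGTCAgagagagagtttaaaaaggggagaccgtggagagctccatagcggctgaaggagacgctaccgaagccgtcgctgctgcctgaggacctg

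Receptors for loperamide itself were near the limit of detection. Oprm1, the mu opioid receptor, had 35, 24 and 26 counts in the DMSO libraries and 12, 21 and 22 in the loperamide libraries, and Oprd1, the delta receptor, 10, 21 and 19 against 5, 13 and 35. Neither was called (adjusted p = 0.376 and 0.640 by edgeR). Oprk1, the kappa receptor, had 0 counts in all 6 libraries. Of the opioid peptides, Pdyn (prodynorphin) fell from 3517, 3586 and 3687 CPM to 1836, 2443 and 2603 CPM, a 1.57-fold fall, and Penk (proenkephalin), with 40 counts in all of DMSO and 8 in all of loperamide, also fell. Pomc was not called.

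Other receptors coupled to G proteins moved in both directions. Of 26 tested, 7 were higher (26.9%, beside 16.1% of all genes) and 8 lower (30.8%, beside 15.8%). Gipr, the receptor of the incretin GIP, rose 1.70-fold, from 74.3 ± 11.7 to 126 ± 11.3 CPM (SD, n = 3). Its fellow incretin receptor Glp1r was at -0.02 on the log2 scale and was not called. The cannabinoid receptor Cnr1 rose 2.09-fold and the adenosine receptor Adora2b 4.50-fold from a low level, 0.703, 0.249 and 0.293 CPM in DMSO against 2.33, 1.60 and 1.87 CPM in loperamide. Cckar, a receptor of Cck, had 10, 23 and 15 counts in DMSO and 1, 0 and 0 in loperamide (adjusted p = 0.000596 by edgeR). Somatostatin receptors fell where called, Sstr5 by 0.97 and Sstr3 by 0.48 on the log2 scale.

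Of 37 pumps and channels for calcium, 11 were higher (29.7%, beside 16.1% of all genes) and 7 lower (18.9%, near the 15.8% of all genes). With the replicate block 17 were higher and 10 lower. Both main calcium pumps of the ER rose. Atp2a2 (SERCA2, ENSMUSG00000029467, chr5:122453513-122502225) was at 2342, 2758 and 3179 CPM in DMSO and 4453, 4498 and 5424 CPM in loperamide, a 1.74-fold rise, and Atp2a3 (SERCA3) rose 1.80-fold. The pore subunits of L-type channels rose as well, Cacna1c 1.84-fold and Cacna1d 1.62-fold. The calcium sensors Calm2 and Calm3 fell 1.41-fold and 1.51-fold, as did the calcium buffer Calb1 (2.72-fold) and the release channel Ryr2 (2.22-fold). Among potassium and sodium channels 11 of 36 rose (30.6%) and 4 fell (11.1%), and 19 and 4 with the block. Of these, the background potassium channel Kcnk1 fell 2.47-fold.

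Of 21 enzymes of cholesterol synthesis, 16 rose and 1 fell, and the median was 0.73. Hmgcs1, which makes HMG-CoA (ENSMUSG00000093930, chr13:119690379-119708260), was at 63.6, 64.0 and 90.1 CPM in DMSO and 169, 112 and 186 CPM in loperamide, a 2.15-fold rise without overlap. Tm7sf2, a sterol reductase, rose 2.22-fold. The enzyme that fell was Ebp, a sterol isomerase, from 66.0, 57.3 and 51.4 CPM to 32.2, 35.0 and 30.6 CPM. Regulators rose too: Insig1, which holds SREBP in the ER, 2.06-fold and Srebf2, the factor itself, 1.67-fold. Of that list, 9 of 23 were higher and 1 lower.

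The sterol element TCACCCCAC was in 69 of the 10861 promoters (0.635%) and in 1 of the 16 cholesterol genes with a promoter, Hmgcs1, 137 bases before its start. Among fatty acid genes 15 of 33 rose and 3 fell (17 and 6 with the replicate block): Lpin1, a phosphatidate phosphatase, rose 2.95-fold, the desaturase Scd1 1.64-fold and the synthase Fasn 1.51-fold.

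Sphingolipid enzymes rose in 11 of 32 cases and fell in 4 (median 0.15). The rises were at steps of synthesis and of breakdown. Sgpl1, the lyase that ends sphingolipid breakdown (ENSMUSG00000020097, chr10:61098642-61147703), was at 177, 167 and 194 CPM in DMSO and 489, 420 and 524 CPM in loperamide, a log2 fold change of 1.41 ± 0.10 (edgeR adjusted p = 2.20e-07). Kdsr, the second enzyme of synthesis, rose 2.53-fold and Degs1, which makes ceramide, 1.83-fold. Sphk1, the kinase that makes sphingosine 1-phosphate, rose 8.86-fold from a low level, with 1.28, 0.996 and 0.587 CPM in DMSO and 11.9, 7.60 and 6.54 CPM in loperamide. Those that fell included the lysosomal enzyme Smpd1 and the synthesis inhibitors Ormdl2 and Ormdl3. The call of Ormdl3 was lost without DMSO replicate 1 or Loperamide replicate 2 or 3 (adjusted p = 0.0612, 0.0540 and 0.0559).

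Lysosomal hydrolases and membrane proteins were divided, with 19 of 56 higher (33.9%, beside 16.1% of all genes) and 13 lower (23.2%, beside 15.8%). With the replicate block 20 were lower. Tpp1, a peptidase, rose 1.81-fold, Man2b1, a mannosidase, 1.76-fold, progranulin (Grn) 1.60-fold and the chloride exchanger Clcn7 1.53-fold. In the other direction, cathepsin Z (Ctsz) fell from 459, 387 and 333 CPM to 162, 185 and 148 CPM, Galns, a sulfatase, fell 2.60-fold and Gla, the alpha-galactosidase, 2.11-fold. The V-ATPase, which acidifies the lysosome, rose in 8 of 19 subunits and fell in 1 (11 and 3 with the replicate block). The CLEAR element TCACGTGA, a known site of the lysosomal regulator Tfeb that reads the same on both strands, was in 229 of the 10861 promoters (2.11%) and in 7 of the 44 lysosomal genes with a promoter. Of those 7, Clcn7 and Mcoln1 rose, Gla and Ctsa fell and Ctsd, Gnptg and Cln3 were not called.

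Among 51 autophagy genes, 21 rose and 1 fell, with a median of 0.21. Nutrient sensors on the lysosome surface were among those that rose. Rragd, a Rag GTPase (ENSMUSG00000028278, chr4:32983037-33022180), was at 44.6, 45.1 and 53.05 CPM in DMSO and 146, 137 and 168 CPM in loperamide, a 3.16-fold rise. Flcn (folliculin), which activates it, went from 75.7, 67.5 and 70.1 CPM to 196, 177 and 189 CPM, a log2 fold change of 1.40 ± 0.09 (edgeR adjusted p = 8.10e-08), and its partner Fnip2 rose 2.04-fold. Tfeb, whose location these proteins control, rose 1.53-fold. Gabarapl1 and Map1lc3b, which coat autophagosomes, rose 1.69-fold and 1.52-fold, whereas the receptor Sqstm1 was at 711 ± 109 and 822 ± 135 CPM without a call (adjusted p = 0.248 by edgeR, 0.01803 with the replicate block). The member that fell was Wipi1, 2.16-fold.

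Transcripts of the mitochondrial genome rose, but unevenly along it. Of its 37 genes 18 were tested, and 11 rose and 0 fell. The ribosomal RNA mt-Rnr2 was at 232, 209 and 172 CPM in DMSO and 1477, 1373 and 994 CPM in loperamide, a 6.28-fold rise (edgeR adjusted p = 1.40e-07), and mt-Rnr1 rose 2.63-fold. Of the messenger RNAs, mt-Nd2 rose 2.48-fold, from 1875, 1503 and 1355 CPM to 4709, 3474 and 3575 CPM, and mt-Nd3, mt-Nd4l and mt-Nd4 rose by 0.97, 0.71 and 0.68 on the log2 scale. The call of mt-Nd4 was lost without DMSO replicate 2 or 3 or Loperamide replicate 1 (adjusted p = 0.0593, 0.0621 and 0.0641). Other messenger RNAs were not called: mt-Co1 was at -0.34, mt-Cytb at -0.17 and mt-Nd5 at 0.11. With the replicate block 5 of the 9 messenger RNAs tested were higher and 2 lower. Only 7 of 22 transfer RNAs had enough counts to be tested, and 5 of them rose.

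**Figure D3:**
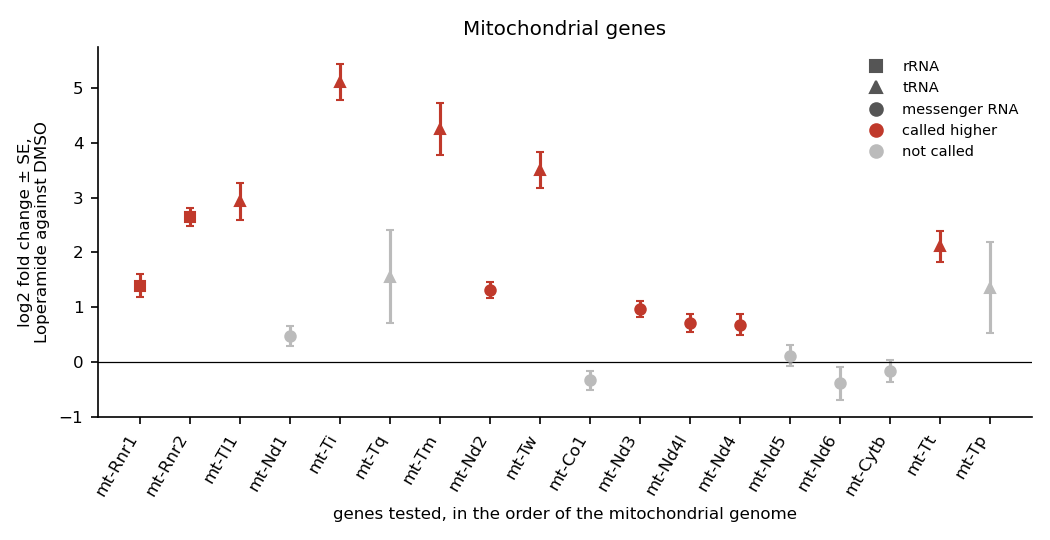
Log2 fold change ± SE of Loperamide against DMSO for the 18 mitochondrial genes tested, in the order of the mitochondrial genome, with squares for ribosomal RNAs, triangles for transfer RNAs and circles for messenger RNAs. Called genes (red) include both ribosomal RNAs and 5 transfer RNAs, and the messenger RNAs range from -0.40 (mt-Nd6) to 1.31 (mt-Nd2).

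Mitochondrial ribosomal RNA took 0.0260% to 0.0349% of all counts in DMSO and 0.120% to 0.183% in loperamide. These RNAs are not the main target of a messenger RNA library, and the part that library preparation played was not tested. The genes mt-Co2, mt-Atp8, mt-Atp6 and mt-Co3 had 0 to 2 counts in each group. The nuclear genome holds near-identical copies of mitochondrial genes, and reads cannot be told apart where the copies match. Among such copies, the unprocessed pseudogene Gm28437 (chr1:24613189-24613971) held 4295 ± 937 CPM in DMSO and 2505 ± 404 CPM in loperamide, so these values are uncertain.

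Nuclear subunits of the respiratory chain moved the other way. Of 75 nuclear subunits of oxidative phosphorylation, 39 fell and 0 rose, with a median of -0.31. The changes were small: Atp5b, the catalytic subunit of ATP synthase, fell from 1180, 1168 and 1091 CPM to 714, 761 and 760 CPM, a 1.54-fold fall, and Cox5b, of cytochrome oxidase, also 1.54-fold. In the tricarboxylic acid cycle 11 of 22 genes fell and 1 rose. Fh1 (fumarase) stood out with a 2.71-fold fall, from 207, 190 and 164 CPM to 65.9, 80.3 and 61.1 CPM, while the citrate synthase Cs fell 1.196-fold. Of 77 mitochondrial ribosomal proteins, 16 fell (20.8%, near the 15.8% of all genes) and 1 rose (31 and 3 with the replicate block).

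Genes of mitosis were lower almost without exception, with 57 of 60 called lower, 0 higher and a median of -0.93. Ccnb1 (cyclin B1, ENSMUSG00000041431, chr13:100778650-100786570) was at 76.0, 81.4 and 74.6 CPM in DMSO and 26.7, 36.9 and 31.0 CPM in loperamide, a 2.45-fold fall (edgeR adjusted p = 1.17e-06). The kinase Plk1 fell 2.39-fold, Cdk1 2.18-fold and the proliferation marker Mki67 1.87-fold, and the groups of each did not overlap. Members that missed the threshold were Cks2 (-0.50), Smc4 (-0.23) and the securin Pttg1 (0.07). Of 54 genes of DNA replication, 19 fell and 1 rose (29 and 5 with the replicate block), with a median of -0.25. Tyms, for thymidylate synthesis, fell 1.66-fold, whereas the helicase subunits Mcm2, Mcm3 and Mcm7 were not called.

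The CHR element TTTGAA, which binds the complexes that time mitotic genes, is short and was in 1547 of the 10861 promoters (14.2%), against 38 of the 52 mitosis genes with a promoter (73.1%). Promoters of Ube2c, a ubiquitin enzyme of anaphase (chr2:164769679-164769978, plus strand), and of cyclin B2 (chr9:70421505-70421804, minus strand) are shown, with TTTGAA or its reverse complement TTCAAA in capitals. The match lies 29 bases before the start in Ube2c, and 167 bases before and 4 bases after it in Ccnb2. Ube2c was at 118.2, 108 and 91.5 CPM in DMSO and 36.4, 42.5 and 33.9 CPM in loperamide, and Ccnb2 fell 2.21-fold.
Ube2c: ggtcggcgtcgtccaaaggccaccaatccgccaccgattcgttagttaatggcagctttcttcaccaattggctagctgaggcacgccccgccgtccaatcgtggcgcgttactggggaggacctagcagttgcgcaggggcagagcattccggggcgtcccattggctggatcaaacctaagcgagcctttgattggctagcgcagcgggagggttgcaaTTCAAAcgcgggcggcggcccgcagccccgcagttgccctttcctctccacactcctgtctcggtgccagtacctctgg
Ccnb2: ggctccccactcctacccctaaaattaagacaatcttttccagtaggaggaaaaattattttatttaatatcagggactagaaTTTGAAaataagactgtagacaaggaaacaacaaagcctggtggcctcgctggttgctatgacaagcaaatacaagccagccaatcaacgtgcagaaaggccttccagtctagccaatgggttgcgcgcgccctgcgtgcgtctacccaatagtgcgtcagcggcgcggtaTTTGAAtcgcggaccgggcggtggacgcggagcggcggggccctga

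Of 36 histone genes 24 fell and 0 rose (27 and 2 with the replicate block), with a median of -1.09. However, replication-dependent histone messages lack poly(A) tails and many copies are near-identical, so single members are uncertain. H2bc4 was at 25.6, 20.04 and 18.05 CPM in DMSO and 6.80, 7.07 and 5.54 CPM in loperamide, and H1f3 fell 2.94-fold. The G1 cyclin Ccnd2, a driver of beta cell division (ENSMUSG00000000184, chr6:127125162-127152193), fell 4.02-fold, from 76.3, 124 and 144 CPM to 19.1, 32.5 and 33.6 CPM. Ccnd3 and Cdk4 were not called. The inhibitors Cdkn1a (p21) and Cdkn1b (p27) rose 1.39-fold and 1.32-fold, whereas the inhibitor Cdkn2d fell by 0.29 on the log2 scale (edgeR adjusted p = 0.0329). The call of Cdkn2d was lost with the 2 groups alone, and without DMSO replicate 1 or 2 or any loperamide replicate. Of 17 such regulators of cycle entry, 2 rose (11.8%) and 3 fell (17.6%), or 6 and 4 with the replicate block.

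Stress pathways outside the ER differed in direction. Atf4 is the transcription factor of the response to amino acid shortage and ER stress, and of 34 known targets 18 rose and 4 fell (median 0.42). Slc6a9, a glycine transporter (ENSMUSG00000028542, chr4:117834506-117875198), was at 22.4, 21.5 and 19.0 CPM in DMSO and 65.9, 56.8 and 60.2 CPM in loperamide, a 2.91-fold rise (edgeR adjusted p = 8.10e-08). The amino acid transporter Slc38a2 rose 2.185-fold, Atf5 2.04-fold and Chac1, which degrades glutathione, 2.22-fold. Asns, Phgdh and Psat1, the enzymes of asparagine and serine synthesis, were not called, and Pycr1, of proline synthesis, fell 2.57-fold. Atf4 itself was at 518 ± 97.0 and 643 ± 106 CPM and was not called (adjusted p = 0.161 by edgeR), although it passed with the replicate block (1.74e-05).

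Targets of Nrf2, the oxidant sensor, rose in 10 of 24 cases (41.7%, beside 16.1% of all genes) and fell in 5 (20.8%, beside 15.8%). Hmox1 (heme oxygenase) rose 2.87-fold, from 86.2, 76.8 and 64.0 CPM to 278, 167 and 206 CPM, and Gstm1 2.08-fold, while Srxn1 fell by 0.64 on the log2 scale. Of 28 cytosolic heat shock genes, 12 fell and 1 rose. Hspa8 (Hsc70), the constitutive form, went from 2945, 2926 and 2599 CPM to 1631, 1888 and 1769 CPM. Proteasome subunits fell in 28 of 42 cases, by no more than 0.69 on the log2 scale, and 4 rose. The 4 that rose were Psmb8, Psmb9, Psme1 and Psme2, the inducible subunits of the immunoproteasome and its activator. Psme2 was not called without DMSO replicate 2 or 3 or Loperamide replicate 1 or 3 (adjusted p from 0.0600 to 0.123).

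Psmb8 and Psmb9 are also in the list of interferon and MHC class I genes, of which 17 of 36 rose and 1 fell (median 0.46). B2m, the light chain of MHC class I, was at 21.3, 24.7 and 24.2 CPM in DMSO and 46.0, 44.5 and 47.5 CPM in loperamide, a 1.97-fold rise. Tap2, which loads its peptides, rose 2.20-fold and Parp14 4.23-fold. Rsad2 (viperin) fell 3.28-fold, and Isg15 and the heavy chains H2-K1 and H2-D1 were not called. Leukocyte markers were low, and their sums overlapped between the groups: 7 markers of macrophages and leukocytes summed to 4.55 to 6.07 CPM in DMSO and 4.26 to 4.67 CPM in loperamide, and 7 of lymphocytes to 0.293 to 0.895 and 0.288 to 0.836 CPM. Of the former, Adgre1 and Aif1 were at 0, and Cd68 was called lower, from 2.75, 1.87 and 1.61 CPM to 1.03, 1.37 and 1.22 CPM (edgeR adjusted p = 0.0212). That call was lost with the 2 groups alone and without DMSO replicate 1 or Loperamide replicate 1 or 3 (adjusted p from 0.0583 to 0.145).

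Of 20 clock genes, 13 rose and 1 fell, and the median of 0.76 was the highest of the lists plotted by member. Per3 was at 9.72, 9.96 and 13.1 CPM in DMSO and 33.9, 35.0 and 35.9 CPM in loperamide, a 3.21-fold rise. The repressors Bhlhe40 and Bhlhe41 rose 2.799-fold and 2.23-fold, Nr1d1 and Nr1d2 (Rev-erb) 2.48-fold and 2.64-fold, and the output factors Tef and Dbp 2.28-fold and 2.15-fold. The core activator Arntl (Bmal1) fell by 0.48 with an adjusted p of 0.0443 that was above 0.05 in 5 of 6 comparisons with 1 library left out, and Clock, Cry1 and Per2 were not called. All libraries of a group were labelled 48 h, and the time of day of harvest is not given.

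Genes of the FoxO family and known FoxO targets rose in 18 of 31 cases and fell in 0 (median 0.61). With the replicate block 22 rose and 1 fell. Foxo3 was at 35.7, 36.9 and 39.4 CPM in DMSO and 66.4, 65.2 and 64.7 CPM in loperamide, a 1.75-fold rise, and Foxo1 rose 1.29-fold without overlap (adjusted p = 0.0157 by edgeR). The call of Foxo1 was lost without DMSO replicate 1 or 2 or Loperamide replicate 3 (adjusted p = 0.0892, 0.0611 and 0.0691). Bcl6, a repressor, rose 3.10-fold and Bbc3 (Puma), an activator of cell death, 2.62-fold. Irs2, Sod2 and Gadd45a were not called. Among 29 known p53 targets, 10 rose and 3 fell (17 and 4 with the replicate block), led by Trp53inp1 at 3.18-fold and Sesn2 at 1.99-fold, and Mdm2 was not called.

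**Figure D4:**
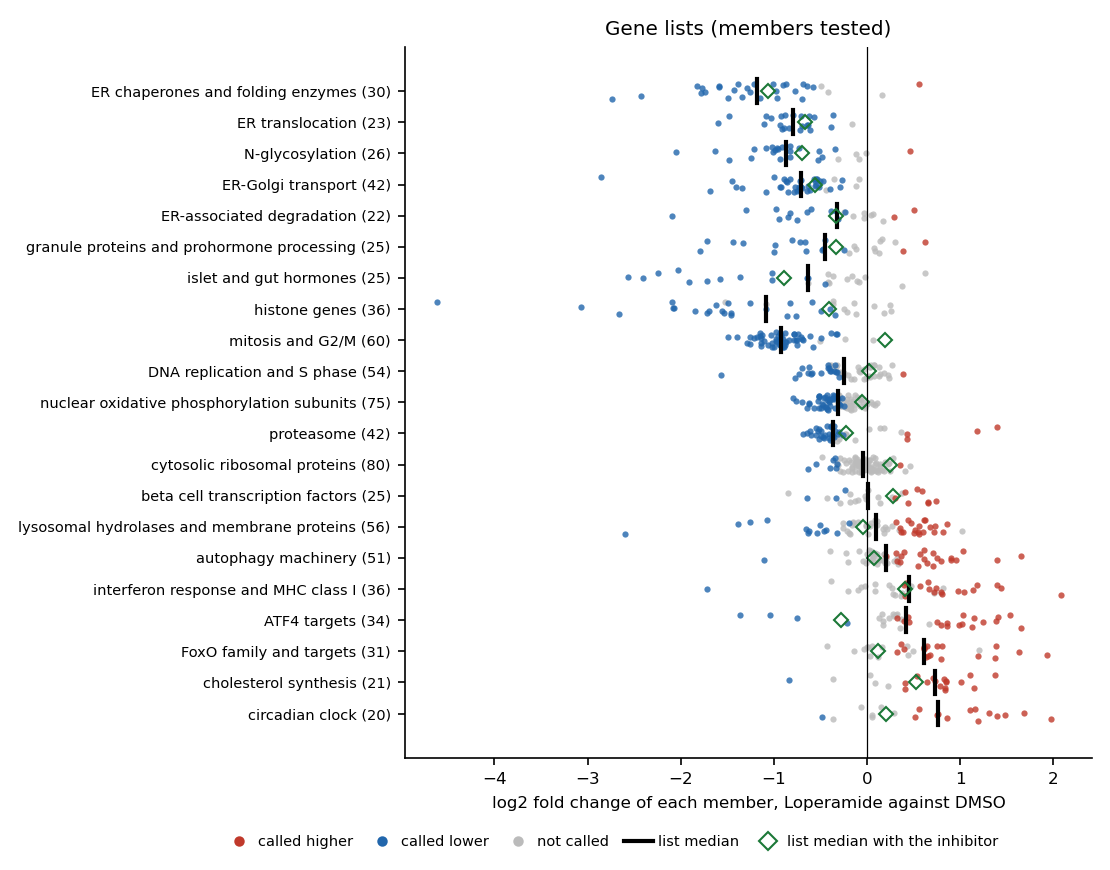
Log2 fold change of Loperamide against DMSO for each tested member (points) of 21 gene lists, coloured by call, with the list median (black line) and the median of the same members for FoxOi_Loperamide against FoxOi (green diamond). Medians run from -1.18 for ER chaperones to 0.76 for the clock, and the diamonds lie near the lines for the ER and cholesterol lists but on the other side of 0 for mitosis and Atf4 targets, among others.

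Of 27 semaphorins and their receptors 5 rose (18.5%, beside 16.1% of all genes) and 3 fell (11.1%, beside 15.8%), or 8 and 5 with the replicate block. Beside Sema6a, whose rise is given above, the co-receptor Nrp2 rose by 1.07 and Sema3c fell by 0.96 on the log2 scale. In the Wnt pathway 7 of 19 genes rose (36.8%) and 3 fell (15.8%, the same share as of all genes), or 11 and 4 with the block. The related ligands Wnt5a and Wnt5b went opposite ways: Wnt5a fell from 18.2, 12.8 and 16.5 CPM to 6.34, 4.10 and 5.54 CPM and Wnt5b rose 2.58-fold. The Notch modifier Lfng (lunatic fringe) fell 4.44-fold, with the receptor Notch1, the ligand Dll1 and the target Hes1 not called. Of the activin and BMP genes, the activin subunit Inhbb fell 4.52-fold and the target Id1 2.95-fold, while the receptor Tgfbr1 rose 1.63-fold.

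Epithelial and matrix genes moved in both directions. Of 19 genes of junctions and keratins, 4 rose (21.1%, beside 16.1% of all genes) and 7 fell (36.8%, beside 15.8%). Krt8 (keratin 8) was at 224, 177 and 160 CPM in DMSO and 96.8, 90.4 and 74.4 CPM in loperamide. Epcam fell 1.89-fold, whereas the claudin Cldn1 rose by 0.67 on the log2 scale. Spp1 (osteopontin) fell 9.10-fold and Col18a1, a basement membrane collagen, rose 3.82-fold, both from levels under 10 CPM. Of 32 glycolysis and hypoxia genes 6 rose (18.75%, near the 16.1% of all genes) and 10 fell (31.25%, beside 15.8%). With the block 10 rose and 14 fell. P4ha1, a collagen hydroxylase of the ER, fell 2.12-fold, and the neuronal enolase Eno2 rose 1.67-fold. Of 80 cytosolic ribosomal proteins, 1 was higher (1.25%) and 7 were lower (8.75%), both under the shares of all genes. Their median was -0.05, and 11 were higher and 18 lower with the replicate block.

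Markers of other cell types that a culture could hold were counted as a check. Acinar markers summed to 2.05 to 5.75 CPM in DMSO and 0.359 to 1.03 CPM in loperamide, with Cpa1, Pnlip, Prss1 and Ptf1a at 0, and mast cell markers to 1.37 to 2.62 and 0.0932 to 0.380 CPM. Endothelial markers (1.92 to 2.43 and 1.82 to 3.08 CPM, Kdr at 0) and fibroblast markers (2.49 to 3.45 and 3.04 to 4.31 CPM) overlapped between groups. Ductal markers summed to 255 to 346 and 167 to 227 CPM with Krt19 at 0, and neuronal markers to 1446 to 1623 and 1237 to 1389 CPM. The part these play in the changes above was not tested.

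Loperamide was also given together with the FoxO1 inhibitor, and FoxOi_Loperamide against FoxOi repeats the comparison in 6 libraries that share none with the first. There 4465 genes (26.6%) were called. Of the 5370 genes called without the inhibitor, 4380 (81.6%) had the same direction with it, beside 11618 of all 16808 tested (69.1%), and 2314 were called the same way and 195 the opposite way. The test of the difference between the effects called 1594 genes (9.48%), of which 1056 were among the 5370.

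Secretory genes were lower in this comparison too. ER chaperones fell in 27 of 30 cases with a median of -1.06, ER translocation genes in 22 of 23 with -0.67, N-glycosylation genes in 22 of 26 with -0.70 and ER to Golgi genes in 37 of 42 with -0.55. A difference between the effects was called for 2, 0, 1 and 2 of them. Hspa5 fell by 1.70 with the inhibitor and by 1.38 without it, and the difference was not called (adjusted p = 0.158 by edgeR). With and without the inhibitor, Vgf was at -1.85 and -1.72 and Kdelr3 at -2.99 and -2.85. Dusp6 was at -2.29 with the inhibitor and Etv5 at -4.41, and both differences from the values without it were called (edgeR adjusted p = 0.00928 and 0.00285). Cholesterol genes rose in 13 of 21 cases with the inhibitor.

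**Figure D5:**
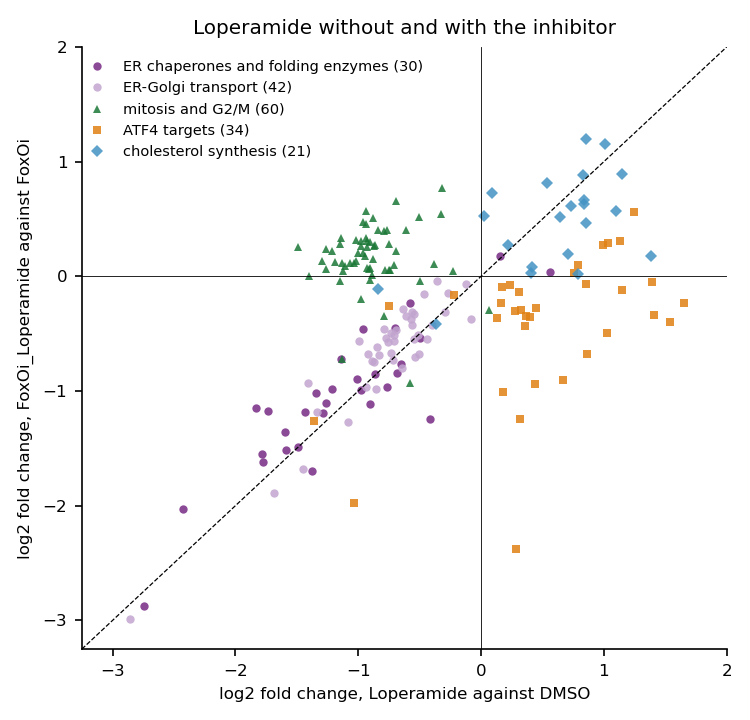
Log2 fold change of FoxOi_Loperamide against FoxOi (vertical axis) against that of Loperamide against DMSO (horizontal axis) for the tested members of 5 lists, with a dashed line where both are equal. ER chaperones and ER to Golgi genes follow the line, while most mitosis genes lie at a negative value on the horizontal axis and a positive one on the vertical axis, and most Atf4 targets the reverse.

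Genes of cell division and amino acid stress differed between the comparisons. Mitosis genes had a median of 0.19 with the inhibitor, 14 higher and 3 lower of 60, and the difference was called, in the positive direction, for 54 of them. Ccnb1 was at -1.29 without the inhibitor and at 0.13 with it, a difference of 1.42 (adjusted p = 5.73e-05 by edgeR). Atf4 targets had a median of -0.28 with the inhibitor, 3 higher and 10 lower of 34, and the difference was negative and called for 22. Slc6a9 was at 1.54 without and -0.40 with the inhibitor. Of 31 genes of the FoxO family and its targets, 4 rose and 3 fell with the inhibitor (median 0.12). The difference was negative and called for 10 of these 31 (32.3%, beside 9.48% of all genes). Nuclear oxidative phosphorylation genes, lower in 39 cases without the inhibitor, were lower in 3 of 75 with it. The difference was called for 7 of them (9.33%), near the share of all genes (9.48%). With the inhibitor 8 of 51 autophagy genes rose and 9 fell, and of 20 clock genes 8 rose and 4 fell. Of all genes, 26.6% were called there in either direction. The difference was called for 12 autophagy genes (23.5%) and 6 clock genes (30%), beside 9.48% of all genes.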

How the data were processed

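The 12 Min6 libraries were stranded, from messenger RNA, with 50-base single reads, per the labels' protocols. The values analysed are the raw counts per gene that the authors deposited. The authors also deposited FPKM values, scaled by gene length and library, which were not tested. DESeq2, STAR 2.7.5a and Picard 2.19.2 are named in the submitters' processing notes, with the builds GRCm38 and mm10. Counting tool and strand setting: not given in the sources used here, so reads of overlapping genes may be mixed.

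Genes passing filterByExpr (minimum count 10, minimum total 15) left 16808 of 55487. Counts were scaled with TMM and fitted with edgeR 4.0.16 in R 4.3.3 to all 12 libraries, which share 1 estimate of the spread, with the group as the only term. The contrasts were Loperamide minus DMSO, FoxOi_Loperamide minus FoxOi, and their difference (the interaction). A gene was called where its p-value, adjusted by Benjamini and Hochberg across the 16808 genes, was under 0.05. Log2 fold changes use a prior count of 0.125, folds are 2 to the power of these, and the SE is their size over the root of the F statistic. CPM use the TMM-scaled library size. Scripts were tested on simulated data. There, 38 of 67 genes changed 1.5-fold were called, 56 of 67 changed 2-fold and 64 of 66 changed 4-fold. Another 13 calls, among 16456 genes, were false. A gene without a call may thus still have changed. Depth limits precision for low genes. The counts are without molecular tags, and libraries of a group differed by more than counting error.

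In the labels, a replicate number goes with 1 code across the groups, whose meaning is not stated. Their deviations from the group means correlated at 0.352, 0.135 and 0.423 for same numbers and between -0.378 and 0.0305 for different numbers, so a fit with the number as a block was an alternative. The members and gene lists were chosen with earlier results of these data known, so lists are described by counts and medians, with no p. Genes named are 9 set genes, and the 12 largest rises and falls at a mean of at least 5 CPM, without overlap of groups. The 8 smallest adjusted p in each direction had the same limits. Also named are the 8 largest gains and losses of CPM, and up to 6 called members in each direction per list. The 6 interaction genes had the smallest adjusted p of the difference at a mean of at least 5 CPM. These means are over the 6 DMSO and loperamide libraries. Other genes named were chosen after their values were seen.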

Additional observations from a re-analysis of the deposited data

Results flagged for a closer look

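The effect of loperamide differed with the FoxO1 inhibitor present, by the interaction term of the edgeR fit, for 1594 genes. Differences are given here as the log2 effect with the inhibitor minus the effect without it. The genes included 54 of 60 mitosis genes, each with a positive difference, and 22 of 34 Atf4 targets, each with a negative one.

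Glucagon fell with loperamide by less in the presence of the inhibitor, and the difference for Gcg was 1.68. Among beta cell factors the difference was 0.64 for Pdx1, which fell by 0.24 without the inhibitor (a call that was lost in 7 alternatives) and rose by 0.40 with it, and 1.07 for Mafa, which was not called without the inhibitor and rose by 0.98 with it.

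Of genes averaging 5 CPM or more over the DMSO and loperamide libraries, the 6 with the smallest adjusted p of the difference had negative values. They were Slc6a9 at -1.94, Tgfb1, a growth factor, at -2.38, Klhdc8a at -2.89, Sgsm1 at -1.54, the ETS factor Elk3 at -2.14, and Lgi2 at -2.70.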

How the results depend on the processing

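With the replicate block, which pairs libraries of the same number, counts of calls rose. Beside the list counts given with it in the report, these moved by over 1.5 times: 8179 genes called for Loperamide against DMSO, 7504 for FoxOi_Loperamide against FoxOi, 4334 for the difference between the effects, and 29 DNA replication genes lower. All 467 called named genes stayed called with it, and beside the genes given above it made further calls, as the larger counts show. DMSO and Loperamide calls numbered 5357 with RLE scaling, 5423 with DESeq2 1.42.0, 5538 with no filter on low counts and 4643 with the 2 groups alone.

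Leaving out each library in turn gave 4044 to 5356 genes called, 3284 to 3881 with the inhibitor and 1082 to 1894 for the difference. Members called lower ranged from 26 to 27 for ER chaperones, 22 to 22 for translocation, 20 to 22 for N-glycosylation, 35 to 37 for ER to Golgi transport, 12 to 14 for ER-associated degradation, 13 to 13 for granule proteins, 56 to 58 for mitosis, 13 to 23 for DNA replication, 17 to 22 for histones, 26 to 53 for oxidative phosphorylation and 21 to 30 for the proteasome. Members called higher ranged from 15 to 18 for Atf4 targets, 14 to 20 for FoxO targets, 17 to 19 for autophagy, 16 to 17 for cholesterol, 12 to 13 for the clock and 14 to 16 for interferon genes.

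Of the 467 called named genes, 390 were called in every alternative and 0 changed sign. The sign changed for 2 genes without a call: with 1 library left out, Ins2 ranged from -0.259 to 0.0336 (without DMSO replicate 1) and Oprd1 from -0.56 (without Loperamide replicate 3) to 0.67. Depth limits the lowest genes: Oprm1 and Oprd1 had 5 to 35 counts per library, and a p that misses the threshold there does not show that they did not change.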
